A study of Rattus norvegicus with 15 samples.

Results

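Wt1, Tbx18, Tcf21, Upk3b, Upk1b and Msln are 6 genes used as markers of the epicardium, and they were taken from the deposited count table by symbol, 6 of its 26276 genes. The study sequenced beating colonies derived from rat cardiac stem cells (iCM), cardiomyocytes isolated from hearts of 12-week-old rats (aCM), cardiomyocytes isolated from hearts at postnatal day 1 to 2 (nCM), and undifferentiated clonogenic cardiac stem cells (CSC), all of the Wistar strain. Each group has 3 libraries. The CSC libraries are 3 cultures of 1 clone, and the labels name CSC replicate 1 also as the fourth clone of the clone comparison. Another 3 libraries came from 3 further stem cell clones, 1 library per clone (cCSC1, cCSC2 and cCSC3), and the labels do not say how the iCM, aCM and nCM libraries relate to animals or cultures. In bulk RNA of this kind, fewer cells of a type and less RNA per cell cannot be told apart.

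The epicardium is the mesothelial sheet that covers the heart. In the embryo some of its cells lose their epithelial form, enter the heart wall and become fibroblasts and mural cells of the vessels. Wt1 (a zinc finger factor), Tbx18 (a T-box factor) and Tcf21 (a basic helix-loop-helix factor) are transcription factors of this sheet and its progeny. In mouse hearts Tcf21 stays on in fibroblasts and Tbx18 in mural cells, and Wt1 is also found in some endothelial cells. Upk3b and Upk1b encode uroplakins, membrane proteins of urothelium and mesothelium, and Msln encodes mesothelin, a surface protein of mesothelial cells that binds the mucin Muc16.

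Of the 6 genes, 5 have a promoter in the RefSeq table used here (rat build GRCr8), each as 250 bases before and 50 bases after a transcript start. The deposited counts name no build, so these coordinates are those of RefSeq alone. The promoters of 2 factors and 2 uroplakins are shown because these pairs moved in opposite directions between adult and neonatal hearts. Capitals mark the E-box CANNTG (bound by basic helix-loop-helix factors), the GATA motif AGATAA and the TEAD motif GGAATG, each searched on both strands, and no match overlapped another. Wt1 lies at chr3:112021759-112022058 (plus strand), Tcf21 at chr1:24520249-24520548 (plus strand), Upk3b at chr12:26274191-26274490 (minus strand) and Upk1b at chr11:75459131-75459430 (plus strand). The Wt1 window lies within the span of the gene record, so its start is that of the transcript chosen for the table. The same holds for the start in the Upk1b window, which lies inside a gene record that begins at 75459244.
Wt1: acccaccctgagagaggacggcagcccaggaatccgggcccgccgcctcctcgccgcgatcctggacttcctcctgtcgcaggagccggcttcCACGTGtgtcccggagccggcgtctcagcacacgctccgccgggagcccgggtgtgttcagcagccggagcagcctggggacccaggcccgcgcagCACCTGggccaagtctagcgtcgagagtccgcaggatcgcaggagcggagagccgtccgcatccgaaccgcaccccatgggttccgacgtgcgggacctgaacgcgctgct
Tcf21: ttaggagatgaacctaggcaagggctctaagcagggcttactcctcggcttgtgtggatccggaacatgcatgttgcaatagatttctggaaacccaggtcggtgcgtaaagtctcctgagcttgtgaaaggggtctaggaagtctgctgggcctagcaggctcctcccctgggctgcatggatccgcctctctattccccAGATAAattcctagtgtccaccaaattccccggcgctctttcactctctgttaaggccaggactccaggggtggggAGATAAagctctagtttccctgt
Upk3b: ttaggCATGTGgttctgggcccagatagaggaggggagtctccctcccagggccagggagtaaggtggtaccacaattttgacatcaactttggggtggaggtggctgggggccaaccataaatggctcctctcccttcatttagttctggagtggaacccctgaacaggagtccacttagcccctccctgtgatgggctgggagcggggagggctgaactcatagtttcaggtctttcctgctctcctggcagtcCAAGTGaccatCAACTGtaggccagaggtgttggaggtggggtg
Upk1b: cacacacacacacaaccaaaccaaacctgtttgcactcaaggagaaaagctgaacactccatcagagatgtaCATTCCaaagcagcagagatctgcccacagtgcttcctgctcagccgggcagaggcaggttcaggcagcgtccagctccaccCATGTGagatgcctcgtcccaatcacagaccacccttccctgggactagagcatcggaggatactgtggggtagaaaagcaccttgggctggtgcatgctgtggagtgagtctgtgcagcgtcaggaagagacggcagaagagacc

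The Wt1 window is rich in CG dinucleotides, with 34 in 300 bases and a GC content of 71.0%, against a median of 7 and 51.7% over all 33469 promoters of this length. The Upk3b window holds 1 CG, the Upk1b window 6 and the Tcf21 window 7. E-boxes were found in the windows of Wt1 (2), Upk3b (3), Upk1b (1) and Tbx18 (1) and not in that of Tcf21, and 72.1% of all promoters hold at least 1. The GATA motif occurred 2 times in the Tcf21 window, at -49 and 28 from the start, and is held by 11.6% of all promoters. The TEAD motif occurred once, in the Upk1b window at -178, and is held by 14.2% of all promoters.

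The iCM libraries held 44.2 M to 48.5 M counts, the aCM libraries 20.7 M to 26.0 M, the nCM libraries 35.8 M to 43.3 M and the CSC libraries 35.4 M to 48.5 M. Levels are CPM, the counts per 1 M counts of the library after TMM scaling. A level of 3 counts, the limit that a count of 0 allows, corresponds to 0.0587 to 0.166 CPM, which covers counting error only. The summed level of 11 cardiomyocyte markers was 8104 to 9190 CPM in iCM, 102671 to 130608 in aCM, 3054 to 5957 in nCM and 6.93 to 57.3 in CSC. The iCM, aCM and nCM libraries also held markers of other cells. The sum of 12 fibroblast markers was 20993 to 23199 CPM in iCM, 3255 to 6317 in aCM, 20463 to 25280 in nCM and 5797 to 6472 in CSC, and 10 endothelial markers summed to 2385 to 2746 CPM in iCM, 1575 to 2435 in aCM, 3433 to 4085 in nCM and 70.6 to 99.4 in CSC. Red cell markers (4 measured) summed to 16600 to 19685 CPM in iCM, 76.8 to 96.7 in aCM and 23572 to 35828 in nCM. In CSC they summed to 93.8 CPM in replicate 2 and to less than 2 CPM in replicates 1 and 3, so the colonies grown from CSC lay far above the CSC libraries in these markers. No listed marker of these 4 cell types was at 0 in any group.

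**Figure D1:**
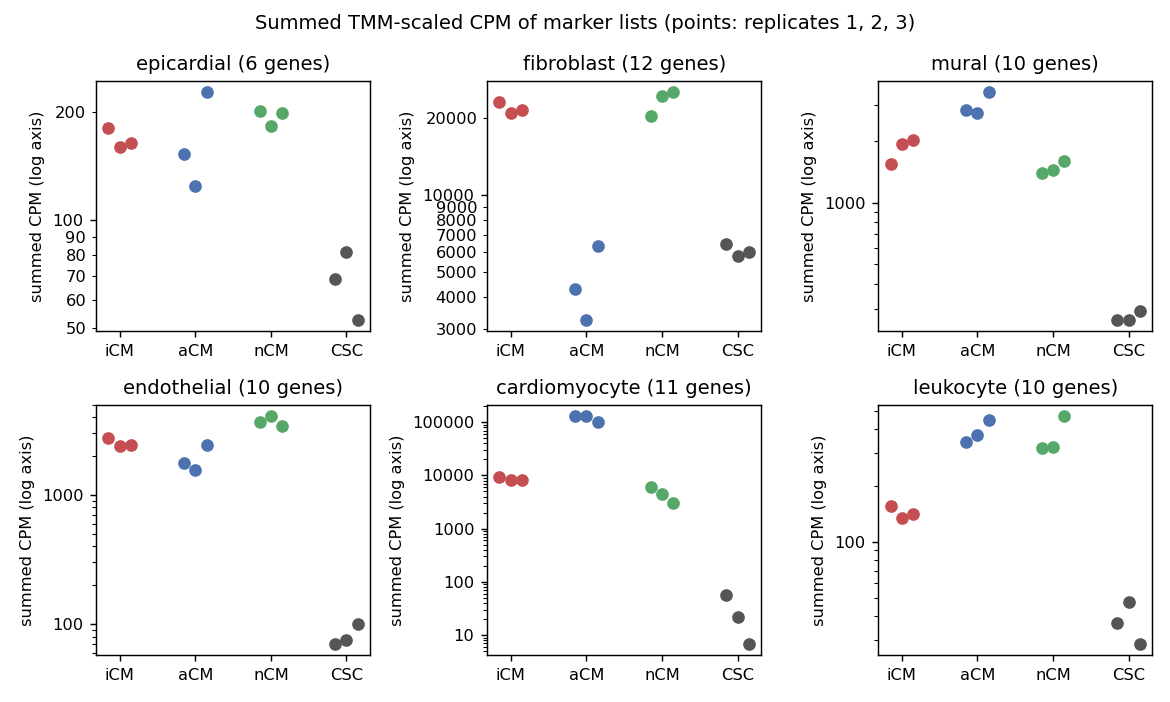
Summed TMM-scaled CPM (log axis) of the 6 epicardial genes and of 5 marker lists in iCM, aCM, nCM and CSC, with 1 point for each of the 3 libraries. The cardiomyocyte sum is highest in aCM, at 102671 to 130608 CPM, while the fibroblast sum is 3255 to 6317 CPM in aCM and 20463 to 25280 CPM in nCM.

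The transcription factors Wt1 and Tcf21 were present in the colonies and in both heart isolates and below 1 CPM in every CSC library. Wt1 stood at 36.7, 30.2 and 32.4 CPM in iCM, at 31.7, 32.5 and 38.4 in aCM, at 53.2, 61.7 and 52.0 in nCM and at 0.547, 0.680 and 0.560 in CSC. Its CSC values rest on 23, 32 and 19 counts. The nCM libraries were the highest, iCM and aCM overlapped, and no CSC library came near the others. Tcf21 stood at 30.6, 27.4 and 30.4 CPM in iCM, at 10.6, 11.5 and 20.1 in aCM, at 52.8, 42.8 and 51.2 in nCM and at 0.594, 0.808 and 0.678 in CSC, from 25, 38 and 23 counts there. The 4 groups did not overlap for Tcf21, in the order nCM, iCM, aCM and CSC.

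Tbx18 followed another order, and the stem cells carried it. It stood at 51.8, 44.9 and 45.0 CPM in iCM, at 20.4, 18.8 and 25.5 in aCM, at 49.1, 54.6 and 53.4 in nCM and at 27.6, 30.6 and 31.4 in CSC. The iCM and nCM libraries overlapped at the top, CSC lay between, and every aCM library was below every CSC library.

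The uroplakin gene Upk3b had 11 counts in all over the 3 CSC libraries. It stood at 9.55, 9.10 and 7.97 CPM in iCM, at 16.4, 10.4 and 24.5 in aCM, at 5.60, 3.63 and 6.53 in nCM and at 0.0951, 0.0425 and 0.147 in CSC, from 4, 2 and 5 counts. All aCM libraries were above all iCM libraries, and all iCM libraries above all nCM libraries. The reads of Upk3b may include some of a long non-coding gene that overlaps it in RefSeq (LOC120095913), as the strand setting of the counting is not given. Upk1b stood at 9.49, 8.24 and 7.97 CPM in iCM, at 16.8, 12.3 and 29.0 in aCM, at 6.61, 4.67 and 5.70 in nCM and at 1.57, 2.85 and 0.649 in CSC. Its groups followed the same order as those of Upk3b without overlap, but its CSC cultures spread over a 4.39-fold range.

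Msln was expressed in every group, CSC included. It stood at 43.3, 39.9 and 40.0 CPM in iCM, at 57.5, 38.9 and 89.9 in aCM, at 34.0, 15.3 and 30.9 in nCM and at 37.9, 46.3 and 19.2 in CSC. The iCM libraries were close together, with an SD of 4.67% of the mean, against 41.6% in aCM, 37.5% in nCM and 40.3% in CSC. The CSC range covered the whole iCM range and overlapped those of aCM and nCM.

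**Figure D2:**
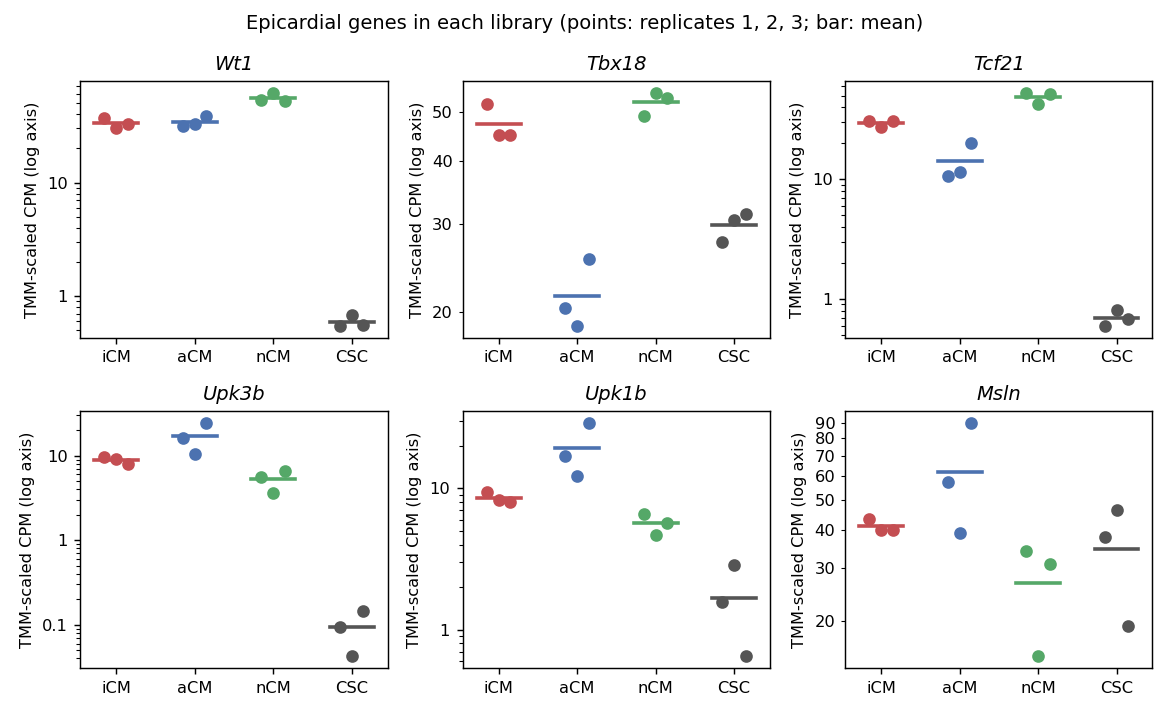
TMM-scaled CPM (log axes, which differ between panels) of the 6 genes in iCM, aCM, nCM and CSC, with 1 point per library and a bar at the mean of 3. Wt1, Tcf21 and Upk3b are below 1 CPM in all CSC libraries, while Tbx18 and Msln are above 18 CPM in every CSC library.

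The comparison of iCM with CSC sets the beating colonies against the stem cells from which the labels derive them. The sources used here do not settle how the colonies were collected, and whether other heart cells were in them was not tested. Wt1, Tcf21, Upk3b, Upk1b and Tbx18 were higher in iCM (5 of 6, none lower). Of all 17242 tested genes 65.7% passed in this comparison, 35.0% higher and 30.7% lower. The log2 fold change was 5.78 ± 0.16 (SE) for Wt1, a 54.9-fold difference (edgeR quasi-likelihood test with Benjamini-Hochberg adjustment, adjusted p = 3.67e-12). Tcf21 differed by 5.39 ± 0.25 on the log2 scale (adjusted p = 2.61e-10). For Upk3b the pooled counts, 1304 in iCM and 11 in CSC, gave a ratio of 99.2 with a 95% interval of 55.3 to 199 that covers counting error only (fitted log2 fold change 6.57 ± 0.44, adjusted p = 1.45e-08).

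The remaining genes differed less between iCM and CSC. Upk1b was higher in iCM by 2.31 ± 0.42 on the log2 scale (edgeR, adjusted p = 0.000392), and by 2.90 without CSC replicate 2. CSC is 1 clone, and the further clones held more Upk1b than CSC (below). Tbx18 was higher in iCM by 0.66 ± 0.12, or 1.58-fold (edgeR, adjusted p = 0.000284). Msln did not pass (0.25 ± 0.38, adjusted p = 0.586). The median log2 fold change of the 6 genes was 3.85, beside 0.09 over all tested genes. Markers of other cells were higher in iCM as well, with 11 of 12 fibroblast, 9 of 10 mural, 10 of 10 endothelial, 9 of 10 leukocyte and 4 of 4 red cell genes. Their median log2 fold change was 4.11 for fibroblast, 6.15 for mural, 8.10 for endothelial, 4.17 for leukocyte and 8.33 for red cell markers. Their part in the difference of the epicardial genes was not tested.

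The heart isolates were set against the same CSC libraries. Wt1 was higher by 5.83 ± 0.16 in aCM (adjusted p = 1.06e-12) and by 6.53 ± 0.17 in nCM (adjusted p = 1.62e-12). In aCM 4 of 6 genes were higher and 1 was lower (77.8% of all genes, 43.0% higher and 34.8% lower), and in nCM 5 were higher and none lower (71.8% of all genes, 36.9% higher and 34.9% lower). Tcf21 was higher by 4.33 ± 0.25 in aCM and by 6.13 ± 0.26 in nCM, and Upk1b by 3.49 ± 0.44 in aCM and by 1.72 ± 0.42 in nCM. Without CSC replicate 2 the Upk1b values were 4.09 in aCM and 2.30 in nCM. The further clones cCSC1, cCSC2 and cCSC3 held Upk1b at 6.27, 4.68 and 7.47 CPM of the column total, beside 4.67 to 6.61 TMM-scaled CPM in nCM. The iCM libraries held Upk1b at 7.97 to 9.49 and the aCM libraries at 12.3 to 29.0 TMM-scaled CPM, above every clone. The nCM range overlapped that of the clones. The scales differ and no test against the clones was made, so the Upk1b differences are tested for the cultured clone alone. For Upk3b the ratio of pooled counts to CSC was 185 in aCM (95% interval 103 to 373) and 59.6 in nCM (33.1 to 120).

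Against CSC, Tbx18 lay on opposite sides in the adult and the newborn isolate. The CSC libraries are of 1 clone, and the further clones cCSC1, cCSC2 and cCSC3 held Tbx18 at 16.9, 27.1 and 11.9 CPM of the column total. The direction in aCM is thus shown for the cultured clone alone. Tbx18 was lower in aCM than in CSC by 0.47 on the log2 scale (-0.47 ± 0.13, edgeR, adjusted p = 0.0035). It was higher in nCM than in CSC (0.81 ± 0.12, edgeR, adjusted p = 3.97e-05). Msln passed in neither (aCM 0.85 ± 0.39, adjusted p = 0.0653, nCM -0.37 ± 0.38, adjusted p = 0.405). In aCM it passed with upper quartile scaling, with a minimum count of 30, without CSC replicate 2 and without aCM replicate 2. Against CSC, 8 of 12 fibroblast markers were higher and 3 lower in aCM, and 9 were higher and 1 lower in nCM. Of the endothelial markers 10 of 10 were higher in aCM and in nCM. The part of these markers was not tested.

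The comparison of aCM with nCM asks what differs between the adult and the newborn heart isolate, and here the 6 genes split evenly. The factors Wt1, Tbx18 and Tcf21 were lower in aCM, and the surface genes Upk3b, Upk1b and Msln were higher in aCM. All 6 passed, where 62.4% of all tested genes did, 5181 of 17242 higher and 5581 lower (32.4%), so that a pass in either direction was common in this comparison. Markers of other cells differed as well, with 7 of 12 fibroblast, 8 of 10 endothelial, 9 of 10 leukocyte and 4 of 4 red cell genes lower in aCM, 4 of 10 mural genes higher and 11 of 11 cardiomyocyte genes higher. In the other direction 1 fibroblast and 1 leukocyte gene were higher in aCM and 1 mural gene was lower. The part of all these markers in the difference of the epicardial genes was not tested. Of the factors Tcf21 had the largest fall, at 14.1 ± 5.23 CPM in aCM and 48.9 ± 5.37 in nCM (SD, n = 3 each, log2 fold change -1.80 ± 0.20, adjusted p = 2.4e-06 with edgeR). Tbx18 averaged 21.6 ± 3.50 CPM in aCM and 52.4 ± 2.90 in nCM (-1.28 ± 0.13, adjusted p = 7.11e-07 with edgeR). Wt1 averaged 34.2 ± 3.67 CPM in aCM and 55.6 ± 5.33 in nCM (-0.70 ± 0.12, adjusted p = 0.000167 with edgeR).

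Upk3b averaged 17.1 ± 7.05 CPM in aCM and 5.25 ± 1.48 in nCM, a log2 fold change of 1.70 ± 0.29 (edgeR, adjusted p = 0.000158). Upk1b averaged 19.4 ± 8.68 CPM in aCM and 5.66 ± 0.97 in nCM (1.77 ± 0.40, edgeR, adjusted p = 0.00197). Msln averaged 62.1 ± 25.8 CPM in aCM and 26.7 ± 10.01 in nCM (1.21 ± 0.39, edgeR, adjusted p = 0.0184). For all 6 genes the 3 aCM libraries lay on 1 side of the 3 nCM libraries. The share of all genes that separate in this way was not computed, and 62.4% of all tested genes passed in this comparison. The Msln call was lost without aCM replicate 3 (0.84, adjusted p = 0.0869), without nCM replicate 2 (0.93, adjusted p = 0.0575) and with total count scaling (0.88, adjusted p = 0.0802). Total count scaling moved the median of all genes by -0.33 in this comparison.

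The adult libraries differed among themselves in a shared way. All 6 genes were highest in aCM replicate 3, and Upk3b, Upk1b, Msln and Tbx18 were lowest in aCM replicate 2. The fibroblast sum was 4298, 3255 and 6317 CPM in aCM replicates 1, 2 and 3, and the endothelial sum 1767, 1575 and 2435, so the same library was highest there too. The cardiomyocyte sum was 130428, 130608 and 102671 CPM and thus lowest in replicate 3. In the colonies all 6 genes were likewise highest in 1 library, iCM replicate 1. That library also had the highest fibroblast, endothelial and cardiomyocyte sums among the iCM libraries, at 23199, 2746 and 9190 CPM. The part of these markers in the level of the epicardial genes was not tested. Without aCM replicate 3 the log2 fold change against nCM was 1.34 for Upk3b (adjusted p = 0.00084), -2.15 for Tcf21 (adjusted p = 6.43e-08) and -0.80 for Wt1 (adjusted p = 0.000139).

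**Figure D3:**
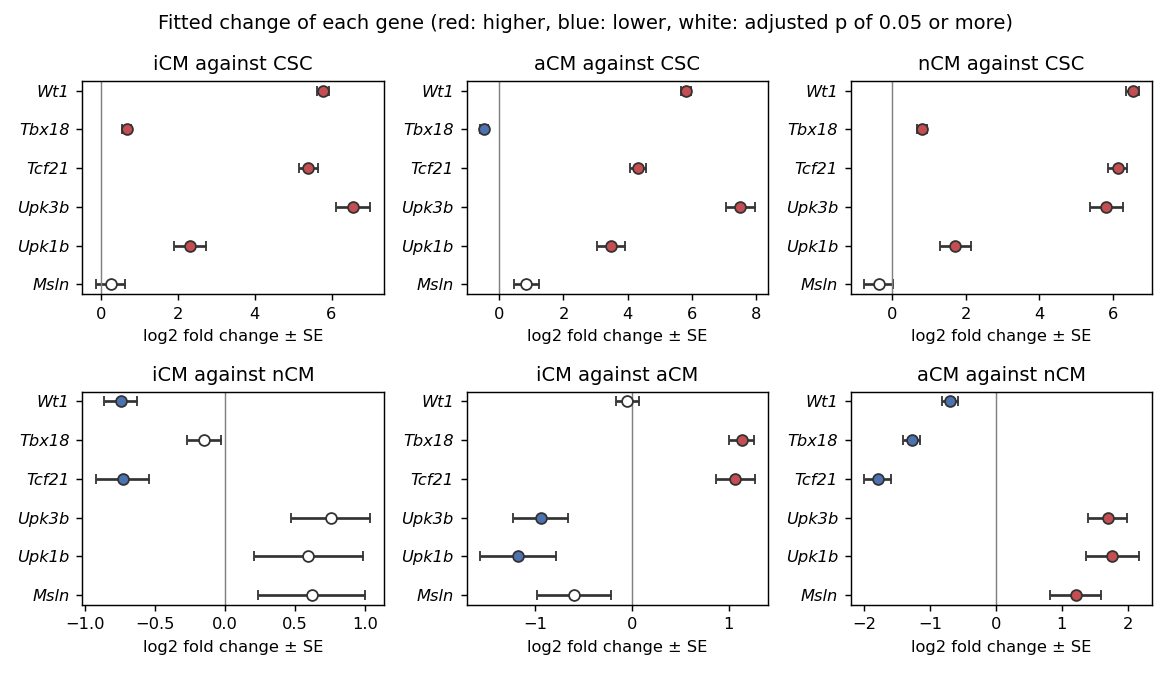
Fitted log2 fold change with its SE for each gene in the 6 comparisons, where a positive value means higher in the group named first. Red points passed as higher and blue as lower at an adjusted p under 0.05, and in aCM against nCM Wt1, Tbx18 and Tcf21 are at -0.70, -1.28 and -1.80 while Upk3b, Upk1b and Msln are at 1.70, 1.77 and 1.21.

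The colonies were also set against each heart isolate. Against nCM, Wt1 was lower in iCM (-0.75 ± 0.12, adjusted p = 0.000506), as was Tcf21 (-0.73 ± 0.19, adjusted p = 0.0108), and no gene was higher (2 of 6 lower; 31.1% of all genes passed, 17.9% higher and 13.2% lower). Tbx18 did not pass (-0.15 ± 0.12, adjusted p = 0.373). Upk3b, Upk1b and Msln were higher in all 3 iCM libraries than in all 3 nCM libraries but did not pass (0.75 ± 0.29, 0.60 ± 0.39 and 0.62 ± 0.38, adjusted p = 0.0594, 0.267 and 0.244). The share of all genes that separate in this way was not computed, so the separation shows nothing particular to these genes. When the fit held only the iCM and nCM libraries, Upk3b and Upk1b passed (adjusted p = 0.018 and 0.0166), and Upk3b passed with DESeq2 (adjusted p = 0.0472). Tcf21 no longer passed without iCM replicate 2 (-0.67, adjusted p = 0.0526). In iCM 3 of 12 fibroblast markers were lower than in nCM and 1 higher, and 9 of 10 leukocyte markers lower and 1 higher. Of the endothelial markers 5 of 10 were lower and none higher, and of the mural markers 2 of 10 were lower and 2 higher. In iCM 5 of 11 cardiomyocyte and 4 of 8 adipocyte markers were higher and none lower. The part of all these markers was not tested.

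Against aCM, the colonies had more Tbx18 and Tcf21 and less Upk3b and Upk1b (2 of 6 higher and 2 lower; 62.9% of all genes passed, 33.4% higher and 29.5% lower). Tbx18 was higher in iCM by 1.13 ± 0.13 (adjusted p = 2.75e-06) and Tcf21 by 1.07 ± 0.20 (adjusted p = 0.000303). Upk3b was lower in iCM (-0.94 ± 0.28, adjusted p = 0.0102), and so was Upk1b (-1.17 ± 0.39, adjusted p = 0.0199). Wt1 did not pass (-0.05 ± 0.12, adjusted p = 0.759), nor did Msln (-0.59 ± 0.38, adjusted p = 0.199). Both uroplakin calls were lost without aCM replicate 3 (Upk3b -0.58, adjusted p = 0.0793, Upk1b -0.75, adjusted p = 0.11) and with total count scaling (Upk3b -0.68, adjusted p = 0.0627, Upk1b -0.91, adjusted p = 0.0616). The Upk1b call was also lost without iCM replicate 2 (-1.15, adjusted p = 0.0569) and without iCM replicate 3 (-1.13, adjusted p = 0.0601). In iCM 5 of 12 fibroblast markers were higher than in aCM and 1 lower. Of the endothelial markers 3 of 10 were higher and 1 lower, and of the mural markers 2 of 10 were higher and 5 lower. Leukocyte markers had 1 of 10 higher and 2 lower, and adipocyte markers 5 of 8 higher and 2 lower. In iCM 4 of 4 red cell markers were higher and 10 of 11 cardiomyocyte markers lower. These counts stand beside 33.4% of all genes higher and 29.5% lower, and the part of these markers was not tested. The comparisons above share libraries and are not independent of each other.

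Ratios between genes of 1 library were taken as well, since they do not depend on the scaling of the library. The log2 ratio of Upk3b to Upk1b counts was 0.05 ± 0.08 in iCM, -0.17 ± 0.12 in aCM, -0.14 ± 0.29 in nCM and -4.08 ± 1.96 in CSC (SD, n = 3 each). The CSC ratio rests on 4, 2 and 5 counts of Upk3b and ran from -6.07 to -2.14. These ratios are not corrected for gene length, so their differences between groups can be read and their size cannot. The log2 ratio of Msln to Upk1b was 2.26 ± 0.07 in iCM, 1.69 ± 0.07 in aCM, 2.17 ± 0.40 in nCM and 4.50 ± 0.44 in CSC. Between the factors the log2 ratio of Wt1 to Tcf21 was 0.17 ± 0.09 in iCM, 1.34 ± 0.35 in aCM, 0.19 ± 0.30 in nCM and -0.21 ± 0.08 in CSC, and the aCM libraries lay above all others.

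A further list of 24 markers of epicardium or mesothelium had 23 genes in the table, all of which were tested. Against CSC, 17 of the 23 were higher and 4 lower in each of iCM, aCM and nCM, with a median log2 fold change of 3.51 in iCM, 3.88 in aCM and 3.32 in nCM. Over all genes 65.7% passed in iCM (35.0% higher), 77.8% in aCM (43.0% higher) and 71.8% in nCM (36.9% higher). The 4 lower genes in all 3 comparisons were the keratin genes Krt7 and Krt8, the zinc finger gene Bnc2 and the membrane scaffold gene Slc9a3r1. Aldh1a2, the enzyme that makes retinoic acid in the epicardium, averaged 41.6 ± 5.01 CPM in iCM and 0.362 ± 0.111 in CSC (log2 fold change 6.80 ± 0.31). The mucin gene Muc16, which encodes the partner of mesothelin, had 264, 356 and 242 counts in iCM, aCM and nCM and 1 count in CSC. Its ratio to CSC was 221 in iCM (95% counting interval 39.3 to 8759), 729 in aCM (130 to 28855) and 236 in nCM (42.0 to 9372). The single count lay in CSC replicate 2, and without it the fitted log2 fold change in iCM was 9.07, against 7.31 with it.

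The keratins of simple epithelia split. Krt8 averaged 70.9 ± 9.24 CPM in iCM and 1650 ± 296 in CSC (-4.54 ± 0.25), and Krt7 averaged 20.3 ± 0.953 CPM in iCM and 250.5 ± 101 in CSC (-3.62 ± 0.30). Krt18 and Krt19 were higher in iCM than in CSC (4.06 ± 0.40 and 4.96 ± 0.32), where Krt18 had 7, 11 and 2 counts. Genes of this family have processed copies in human and mouse, and how shared reads were counted here is not known. Against nCM, the keratins Krt8 and Krt7 were higher in iCM, Krt8 by 3.48 ± 0.24 and Krt7 by 3.43 ± 0.33. Krt8 averaged 10.6 ± 2.79 CPM in aCM and 6.34 ± 1.76 in nCM. In the list, where 31.1% of all genes passed against nCM and 62.9% against aCM, 7 genes were higher and 1 lower in iCM than in nCM (the cadherin gene Cdh1, which passed neither without iCM replicate 3 nor without nCM replicate 3), and 9 were higher and 9 lower in iCM than in aCM. Sema3d, a secreted guidance factor, was higher in iCM than in aCM (3.18 ± 0.33), and Clu, a secreted chaperone, and the T-box factor gene Tbx5, which cardiomyocytes also express, were lower (-2.12 ± 0.24 and -2.04 ± 0.14).

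Between aCM and nCM, 12 genes of this list were higher and 5 lower in aCM, with a median log2 fold change of 0.73 beside -0.03 over all genes, of which 62.4% passed (5181 of 17242 higher and 5581 lower). The 12 included Lrrn4 (1.96), Muc16 (1.65), Rspo1 (1.53), Gpm6a (1.26) and Bnc1 (1.14), and were led by Clu (3.59 ± 0.25) and Tbx5 (2.67 ± 0.15), the first of which averaged 1878 ± 541 CPM in aCM and 156 ± 10.2 in nCM. The 5 lower genes were Prr15 (-3.37), Sema3d (-3.33), Itga4 (-2.08), Aldh1a2 (-1.76) and Dmkn (-1.26). The number of higher genes was 8 without aCM replicate 3 and 7 with total count scaling.

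**Figure D4:**
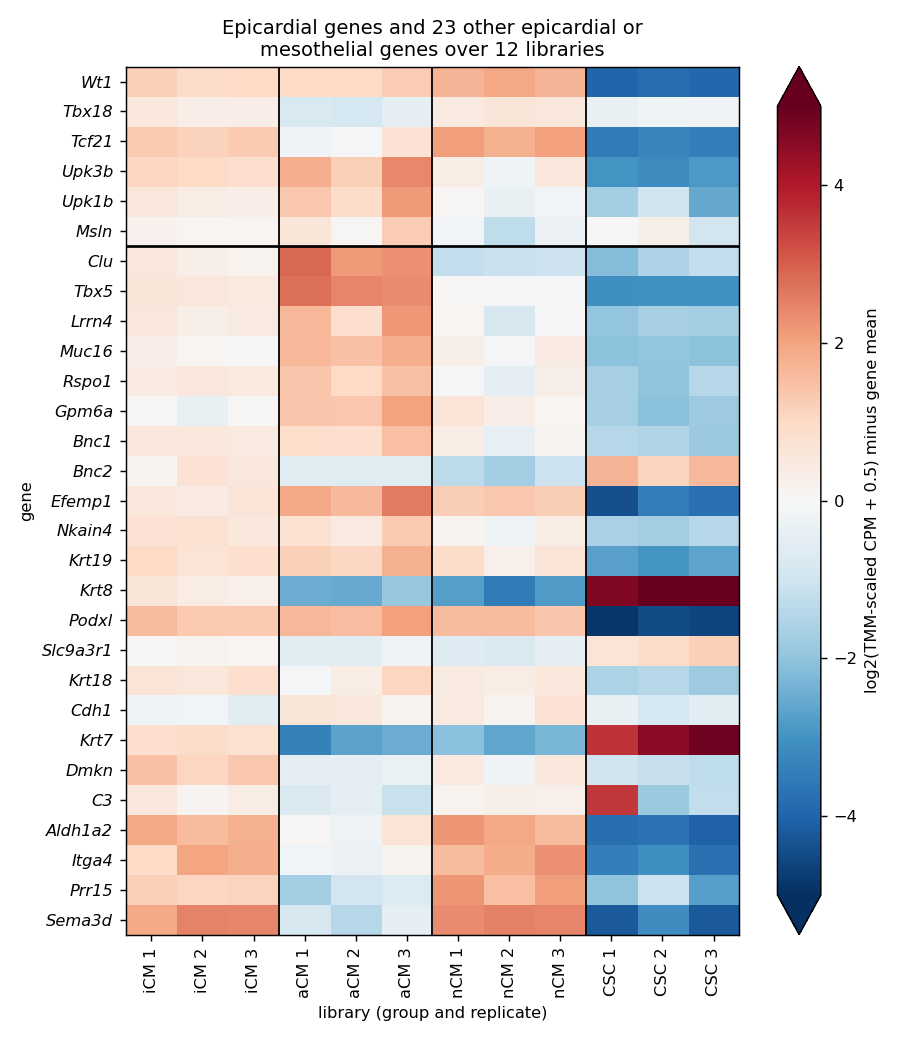
Level of the 6 genes (above the line) and of 23 other epicardial or mesothelial genes in 12 libraries, as log2(TMM-scaled CPM + 0.5) minus the mean of each gene, with the lower block sorted by aCM against nCM and colours clipped at 5 and -5. Clu and Tbx5 at its top and Sema3d and Prr15 at its foot differ most between aCM and nCM, and Krt8 and Krt7 are highest in CSC.

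Retinoic acid genes were compared because the epicardium is a source of this signal in the embryo. In iCM 14 of 15 genes were higher than in CSC and 1 was lower, in aCM 11 and 2, and in nCM 13 and 2, where 65.7%, 77.8% and 71.8% of all genes passed in iCM, aCM and nCM. The receptor gene Rarg, which was lower in iCM, averaged 43.2 ± 1.59 CPM in iCM and 80.4 ± 5.19 in CSC. Crabp1, a retinoic acid carrier, had no count in CSC and was at least 15.1-fold higher in iCM against 3 counts over the CSC group. Between aCM and nCM 3 genes were higher and 9 lower, where 62.4% of all genes passed. Crabp2 averaged 1.22 ± 0.428 CPM in aCM and 14.7 ± 3.00 in nCM, whereas Aldh1a1 averaged 81.8 ± 30.1 in aCM and 28.1 ± 2.01 in nCM. Against nCM, iCM had 3 genes higher and 3 lower, with Rxra at 1.23 ± 0.11 and Aldh1a1 at -1.27 ± 0.27, and against aCM 11 and 3, where 31.1% and 62.9% of all genes passed.

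Genes of the epithelial to mesenchymal transition, the step by which epicardial cells enter the heart wall, passed in 10 of 15 cases between iCM and CSC (7 higher and 3 lower), a share near the 65.7% of all genes. The growth factor gene Tgfb2 averaged 103 ± 16.0 CPM in iCM and 5.89 ± 0.768 in CSC, and the transcription factor gene Twist2 averaged 5.67 ± 0.49 CPM in iCM and 23.9 ± 4.94 in CSC. Between aCM and nCM 11 were lower and 3 higher, with a median of -0.69, where 62.4% of all genes passed. The filament gene Vim averaged 442 ± 97.1 CPM in aCM and 3903 ± 490 in nCM, and Snai2, a repressor of epithelial genes, averaged 0.992 ± 0.603 CPM in aCM and 6.79 ± 0.765 in nCM. The neural cadherin gene Cdh2, which cardiomyocytes also express, was at 704 ± 48.2 CPM in aCM and 77.6 ± 10.8 in nCM. In iCM 10 genes were higher and 2 lower than in aCM (62.9% of all genes passed), and 4 higher and 2 lower than in nCM (31.1%).

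Among 14 measured regulators of the epicardium and of cells derived from it, 11 were higher and 3 lower in iCM than in CSC, where 65.7% of all genes passed. The receptor gene Pdgfrb averaged 586 ± 170 CPM in iCM and 12.4 ± 2.39 in CSC, and the T-box gene Tbx20, which cardiomyocytes also express, averaged 104 ± 11.9 CPM in iCM and 0.40 ± 0.262 in CSC (log2 fold change 7.95, and 8.67 without CSC replicate 2). Between aCM and nCM 5 were higher and 4 lower (4 higher and 7 lower with total count scaling), a share near the 62.4% of all genes, with Scx, a tendon factor gene, at 2.18 ± 0.23 and Nfatc1 at -1.72 ± 0.15. In iCM 7 were higher and 1 lower than in nCM (Tbx20, -0.60, which did not pass without iCM replicate 2 or 3 or without nCM replicate 2 or 3), and 6 higher and 3 lower than in aCM, where 31.1% of all genes passed against nCM and 62.9% against aCM.

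The genes most like each of the 6 were found by the root mean square difference between gene-centred log2(CPM + 0.5) profiles over the 12 libraries. This is a description, and libraries of a group share their cell type and depth. Nearest to Wt1 were Lrrc33 (0.13), Plcl2 (0.16) and C1qtnf7 (0.18), to Tcf21 Cnrip1 (0.18), Rem1 (0.20) and Pde9a (0.22), and to Tbx18 Ttyh2 (0.07), Rsu1 (0.10) and Ctdp1 (0.10), all in log2 units. Nearest to Upk3b were Fras1 (0.35), Krt19 (0.37) and Spint2 (0.41), to Upk1b Lrrn4 (0.36), Cgn (0.36) and Bnc1 (0.37), and to Msln Tgm1 (0.31), Ghdc (0.34) and Ezh1 (0.38). Krt19, Lrrn4 and Bnc1 stand in the further list of epicardial and mesothelial markers. With a pseudocount of 2 in place of 0.5, 10 of these 18 genes were among the nearest again. Among the 6 genes themselves the closest pair was Wt1 and Tcf21 (0.58), followed by Upk3b and Upk1b (0.82). Many other genes were closer, as of 13982 genes Tcf21 ranked 205 in likeness to Wt1, and Wt1 ranked 167 to Tcf21. Upk1b ranked 443 in likeness to Upk3b, and Upk3b ranked 1124 to Upk1b.

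The clone libraries show how far the stem cell levels hold beyond the 1 cultured clone. The clone table lists 5 of the 6 genes, Upk3b not among them, and values are given as CPM of the column total. The authors' values for cCSC1 and cCSC2 are a signal on the scale of counts, made in a way the sources used here do not give, so that they may not be comparable with the estimated counts of cCSC3 and of the cultures. With 1 library per clone no test is possible. Wt1 was at 0.928, 0.651 and 0.368 CPM in cCSC1, cCSC2 and cCSC3, and at 0.578, 0.670 and 0.537 in the CSC cultures. Tcf21 was at 0.712, 0.847 and 0.400 CPM in the clones and at 0.612, 0.791 and 0.639 in the cultures. Both factors were thus below 1 CPM in each of the 6 stem cell libraries.

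Within that limit, Upk1b was higher in all 3 clones than in all 3 cultures, at 6.27, 4.68 and 7.47 CPM in the clones and at 1.63, 2.77 and 0.620 in the cultures. Tbx18 was lower in all 3 clones, at 16.9, 27.1 and 11.9 CPM, against 28.6, 29.7 and 30.1 in the cultures. Msln was at 22.8, 27.6 and 7.91 CPM in the clones and at 39.4, 45.0 and 18.4 in the cultures, so that cCSC3 lay below every culture. Of the 15 clone values, 11 lay outside the range of the cultures. The share over all genes was not computed, so this count shows nothing particular to these genes. Levels of Tbx18 and Msln were lowest in cCSC3 and highest in cCSC2 among the clones. The fibroblast sum was 4676, 15590 and 3804 CPM in cCSC1, cCSC2 and cCSC3, and 6721, 5625 and 5734 CPM in the cultures, so that cCSC2 stood apart, and its part in the Tbx18 and Msln levels was not tested.

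**Figure D5:**
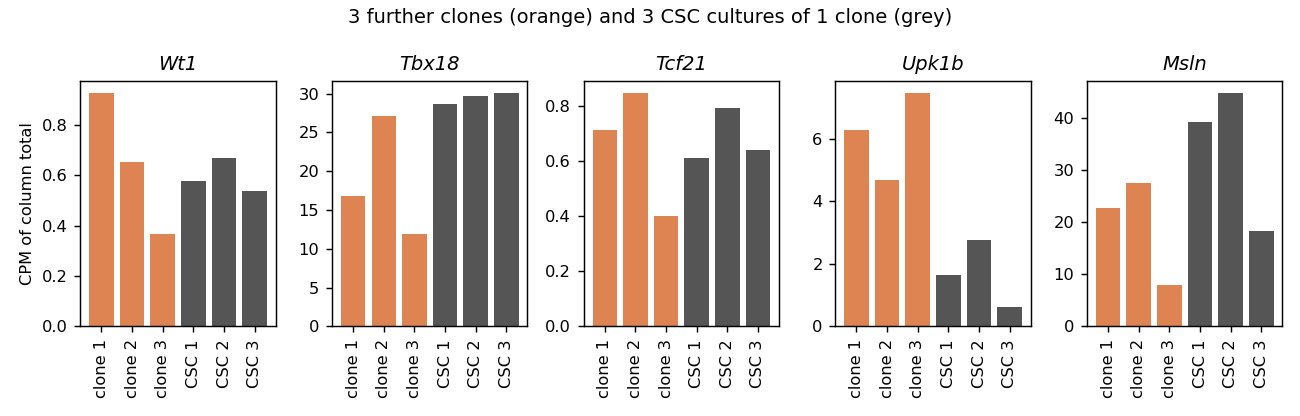
CPM of the column total for 5 genes in 3 further clones (orange, 1 library each) and 3 CSC cultures of 1 clone (grey), with axes from 0. Upk1b is at 4.68 to 7.47 CPM in the clones and at 0.620 to 2.77 in the cultures, and Wt1 and Tcf21 are below 1 CPM in every library.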

How the data were processed

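Libraries came from total RNA depleted of ribosomal RNA (Ribo-Zero) and were randomly primed, per the labels' protocols. The deposited gene values used here are estimated counts under Ensembl rat identifiers and are often not whole. The authors also deposited log2 normalized values, which were not used. For cCSC1 and cCSC2 the authors deposited a signal on the scale of counts. The submitters' processing notes name DESeq, while no aligner, counter, build or strand setting is given in the sources used here.

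Estimated counts were rounded. The filter filterByExpr (minimum count 10) kept 17242 of 26276 genes and all 6 epicardial genes. A line without a gene name holds 0 counts and was left out. All 12 libraries entered 1 fit (R 4.3.3, edgeR 4.0.16, limma 3.58.1, TMM scaling, robust quasi-likelihood test), with p-values adjusted over all tested genes at 0.05. Alternatives were DESeq2 1.42.0, RLE, upper quartile and total count scaling, other filters, 2-group fits, a replicate block and leaving out each library. The procedure was tested on simulated data. Levels and lists were worked up with matplotlib 3.10.9, numpy 2.4.6 and pandas 2.3.3 under Python 3.11.15. Replicates within a group differed by more than sampling noise (lowest median chi-square per gene 1.72, against 0.455 by chance). Each p-value of the main fit rests on 1 spread per gene, estimated over all 12 libraries together. CSC contributes the spread between cultures of 1 clone, and the other groups a spread between libraries that may be technical. Gene lists hold up to 24 genes, and the named genes are all 6 epicardial genes and, of each list in a comparison, at most the 2 called genes with the largest change in each direction; others are named where a count is explained and were chosen after their values were seen. A list gene that this rule would name is not reported here. The 6 genes and the lists were chosen with earlier results of these data known.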

Additional observations from a re-analysis of the deposited data

How the results depend on the processing

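Of 504 recomputed log2 fold changes of the 6 genes, 486 kept their side of the threshold. Another 10 lost the call, 8 gained it and none that passed reversed. Changes that did not pass could change sign, as did Wt1 in iCM against aCM (-0.14 to 0.22) and Msln in iCM against CSC (-0.05 to 0.51). For iCM against nCM, 2 genes passed, all lower; 4 passed when the fit held just those 2 groups, 2 of them higher, and 1 was higher with DESeq2. Leaving out 1 replicate gave 1 to 2 genes passed, 1 to 2 lower and 0 higher. For iCM against aCM, 4 passed, 2 of them lower; with total count scaling 2 passed and 0 were lower, and leaving out 1 replicate gave 2 to 4 passed and 0 to 2 lower. The causes were not tested. Of the other counts of the 6 genes, none moved beyond 1.5 times. The number of clone values outside the range of the cultures was 11 with both scalings. Replicate numbers were not used to pair the libraries in the main fit. Same-numbered libraries deviated together with correlations of -0.22 to 0.08, which cannot show whether they share animals or cultures. With the replicate block, 1 gene was higher in iCM than in nCM (Upk3b, 0.83, adjusted p = 0.0231 with edgeR) and no other call changed. Scaling moved the median of all genes by -0.33 to 0.26 (log2). Depth limits Upk3b in CSC, with 11 counts over 3 libraries.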

Other observations

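Relatives of the uroplakins and of mesothelin were low in every group. Of 5 relatives, Upk1a, Upk3bl and Mslnl had enough counts to be tested, and Upk2 and Upk3a did not, at 0.112 to 0.284 CPM on average in the 4 groups. Upk1a, which encodes another tetraspanin of the urothelial plaque, averaged 2.00 ± 1.28 CPM in iCM, 0.466 ± 0.259 in aCM, 0.522 ± 0.14 in nCM and 0.124 ± 0.0578 in CSC (SD, n = 3 each). It was higher in iCM than in nCM (log2 fold change 1.94 ± 0.51, edgeR, adjusted p = 0.0114), but not without iCM replicate 3 (adjusted p = 0.0578). Upk3bl averaged 0.0939 ± 0.0783 CPM in iCM and 0.649 ± 0.077 in CSC (-2.73 ± 0.54, edgeR, adjusted p = 0.000477). The iCM value rests on 4, 9 and 1 counts, the log2 fold change was -3.56 without iCM replicate 2, and the gene was not tested at a minimum count of 30. Mslnl passed in none of the 6 comparisons.

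The complement gene C3, from the further list of epicardial and mesothelial markers, stood at 16.5, 11.9 and 14.2 CPM in iCM, at 6.45, 7.91 and 4.76 in aCM, at 12.2, 13.4 and 12.9 in nCM and at 132, 2.64 and 4.34 in CSC. CSC replicate 1 lay far above the other CSC cultures of the same clone, and the gene did not pass against CSC in iCM (log2 fold change -1.71 ± 1.17, edgeR, adjusted p = 0.228).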
